A study of Mus musculus with 16 samples.

Results

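The comparison pooled both gene deletions of the series: all 16 libraries entered it, 8 from deleted mice and 8 from floxed controls, out of 16 in the series. The libraries were polyA RNA from YUMM1.7 tumours, a transplanted mouse melanoma line, and per the series text they came from sorted cDC1s (type 1 conventional dendritic cells). The 4 groups, each of 4 libraries, carried the genotype labels IKKbdeltaXCR1 (called Ikbkb-deleted here), IKKbFF (Ikbkb controls), IRF1deltaXCR1 (Irf1-deleted) and IRF1FF (Irf1 controls). Every host bore YUMM1.7 tumours of 200 to 350 mm3 with no other treatment. The growth notes describe the mice as female and name the Ikbkb genotypes alone, so the Irf1 groups rest on their genotype labels. The labels give no age or strain and do not say whether each library is a separate animal. The delta label names XCR1, a chemokine receptor of cDC1s, as the site of deletion, and other cells of these hosts would then keep both genes. Floxed controls carry the loxP-flanked gene. The Ikbkb set and the Irf1 set share no library, so the same direction in both is a comparison of separate libraries.

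IKK-beta, the product of Ikbkb, phosphorylates the inhibitor that holds NF-kB in the cytoplasm, and freed NF-kB turns on genes of inflammation and dendritic cell maturation. IRF1 is a transcription factor induced by interferon-gamma and by NF-kB, and it binds the interferon-stimulated response element (ISRE), a repeat of GAAA that other IRF factors also recognise. cDC1s take up tumour antigen, present it to CD8 T cells and draw T cells in with chemokines such as CXCL9 and CXCL10. Interferon-gamma from T and NK cells in turn induces such genes in many cell types.

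Totals ran from 16478671 to 27433818 counts per library, between 18468 and 22900 genes were detected in each, and mitochondrial genes took 0.699% to 3.15% of counts. Levels are CPM, the count relative to a library total scaled by the trimmed mean of M values (TMM). The threshold for a call was an adjusted p under 0.05 (Benjamini-Hochberg) over all 16040 genes tested. The defining cDC1 genes were present throughout but uneven, with Xcr1 at 12.1 to 318 CPM and Clec9a at 0.603 to 67.6 CPM. All 21 cDC1 identity genes were detected, and their sum was 1963 to 11520 CPM in Ikbkb-deleted, 1502 to 11280 CPM in Ikbkb control, 1234 to 4904 CPM in Irf1-deleted and 1157 to 3238 CPM in Irf1 control libraries. Ikbkb-deleted replicate 1 and Ikbkb control replicate 3 hold the highest of these sums and stand apart from the other libraries of their groups. RNA of other cells was abundant beside it. Fibroblast and endothelium genes summed to 7244 to 14170 CPM in Ikbkb-deleted, 10310 to 11230 CPM in Ikbkb control, 15930 to 26500 CPM in Irf1-deleted and 14580 to 39210 CPM in Irf1 control libraries, above the cDC1 sum in 14 of 16 libraries. Macrophage and monocyte genes summed to 4100 to 18260 CPM, above the cDC1 sum in 14 of 16 libraries, the exceptions in both cases being Ikbkb-deleted replicate 1 and Ikbkb control replicate 3. A large part of the macrophage sum came from Spp1, which alone had 2260 to 7700 CPM. Much of the fibroblast and endothelium sum came from matrix genes, with Col3a1 at 1460 to 13300 CPM and Sparc at 2290 to 5960 CPM. The endothelial genes of that list were low. Pecam1, Cdh5, Kdr, Tek, Vwf and Emcn each had at most 56.4 CPM, and Eng had 41.7 to 269 CPM. These sums add different genes with no scaling for length and are not shares of cells, but they go against reading the libraries as cDC1 RNA alone. Markers of melanoma cells summed to no more than 16.9 CPM. These are genes of the melanocyte lineage, and Mlana, Tyr, Tyrp1, Dct and Slc45a2 each had a count of 0 in 15 of 16 libraries. Tumour cells that express little of them would be missed, so the low sum does not show that tumour cell RNA was scarce. Whether part of the matrix gene or Spp1 RNA came from tumour cells cannot be told from these sums.

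The targeted genes came first, because they bear on the labels. Ikbkb (ENSMUSG00000031537, mm10 chr8:22659212-22706589, minus strand) had 46.3, 28.5, 37.1 and 37.8 CPM in Ikbkb-deleted libraries, against 45.1, 44.5, 121 and 48.6 CPM in Ikbkb controls. It had 77.5, 41.9, 70.8 and 44.3 CPM in Irf1-deleted libraries, against 71.9, 61.6, 66.8 and 102 CPM in Irf1 controls. The groups overlap in both sets, and the mean was lower in deleted libraries of both, including the set in which Ikbkb was not the deleted gene. Pooled over sets, Ikbkb averaged 48.0 ± 17.1 CPM in deleted and 70.1 ± 27.8 CPM in control libraries (SD, n = 8 each), a log2 fold change of -0.58 (SE 0.23) with an edgeR adjusted p of 0.9994. An exact two-sided permutation test within sets gave p = 0.0273, and 0.0546 after adjustment over both targeted genes. Without Ikbkb control replicate 3 the log2 fold change was -0.33.

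Irf1 (ENSMUSG00000018899, mm10 chr11:53770014-53778374, plus strand) had 299, 123, 145 and 98.6 CPM in Irf1-deleted libraries, against 141, 234, 152 and 268 CPM in Irf1 controls. In the Ikbkb set it had 343, 384, 228 and 225 CPM in deleted libraries, against 391.8, 271, 892 and 296 CPM in controls. The groups overlap in both sets, and the library labelled Irf1-deleted replicate 1 lies above every Irf1 control. The pooled log2 fold change was -0.45 (SE 0.28), with an edgeR adjusted p of 0.9994 and an exact two-sided permutation p of 0.167 over 4900 labellings. The pooled value was -0.19 without Ikbkb control replicate 3 and -0.67 without Irf1-deleted replicate 1. The log2 fold change of Irf1 was -0.26 (SE 0.40) in the Irf1 set and -0.65 (SE 0.40) in the Ikbkb set. Neither targeted gene was lost from the libraries labelled as lacking it. Counts over a whole gene can include reads from exons outside the floxed part, and the tables do not separate exons.

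No gene was called for the common effect of both deletions by edgeR (0% of 16040), and the smallest adjusted p was 0.218. Without adjustment 735 genes had a p under 0.05 (4.58%), of which 277 were higher in deleted libraries (1.73%) and 458 lower (2.86%). DESeq2 called 4 genes, 3 lower and 1 higher, among them Ddx58 and Adamtsl1 as lower and Tmem54 as higher. Of the 4 genes 2 had a count of 0 in at least 4 libraries. Tmem54 averaged 0.599 CPM with a count of 0 in 8 libraries, Adamtsl1 averaged 3.23 CPM and Ddx58 50.45 CPM. Within the sets edgeR called no gene for either deletion, with 769 genes under an unadjusted p of 0.05 for Ikbkb (4.79%) and 419 for Irf1 (2.61%). The difference between the deletions likewise had no called gene by edgeR, with 455 under an unadjusted p of 0.05 (2.84%), and 12 called by DESeq2.

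The direction of change was weakly shared between the sets over all genes and more often shared among expressed genes. Of all genes tested 9126 (56.9%) had the same sign in both sets, 4877 lower (30.4%) and 4249 higher (26.5%). Across genes the fold changes correlated at r = 0.0895 (rho = 0.156) over 16040 genes, and at r = 0.29 (rho = 0.24) over the 9641 genes whose mean log2 CPM reached 3, of which 58.7% kept the sign. Genes are not independent replicates, and these values describe the tables only. No overlap between deleted and control libraries within both sets was seen for 6 genes that were lower (0.0374%) and 2 that were higher (0.0125%). The lower ones included Ddx58, C1s1, Bclaf1, Gm47071 and 8030453O22Rik, and the higher ones were Cmtm4 and Fam220a. Gm47071 and 8030453O22Rik averaged 0.675 and 0.398 CPM, so their separation rests on few counts. Fam220a had a log2 fold change of 0.24 (SE 0.13). Of the genes without overlap Ddx58, C1s1 and Bclaf1 fall under the rule for named genes, and the others were picked out after their values were seen.

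**Figure D1:**
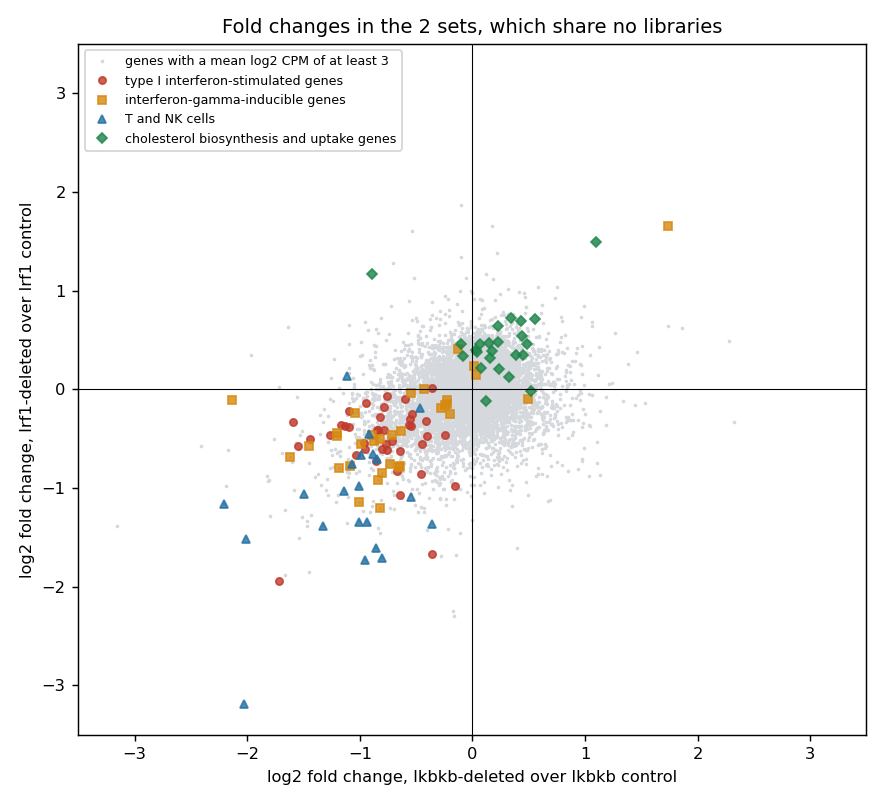
Log2 fold change in the Irf1 set (deleted over control, vertical axis) against that in the Ikbkb set (deleted over control, horizontal axis). Grey points are the 9641 genes whose mean log2 CPM reached 3, and coloured symbols are members of 4 lists; 39 of 40 type I interferon-stimulated genes lie in the lower left quadrant and 19 of 24 cholesterol genes in the upper right.

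Ddx58, which encodes the cytoplasmic viral RNA sensor RIG-I and is itself induced by interferon, was the expressed gene with the smallest p. Ddx58 (ENSMUSG00000040296, mm10 chr4:40203773-40239828, minus strand) had 21.6, 29.8, 24.7 and 21.7 CPM in Ikbkb-deleted libraries, against 38.4, 32.8, 62.2 and 43.3 CPM in Ikbkb controls. It had 56.7, 63.9, 47.2 and 32.8 CPM in Irf1-deleted libraries, against 68.0, 85.6, 97.4 and 81.1 CPM in Irf1 controls. Every deleted library lies below every control of its set. The log2 fold change was -0.79 (SE 0.16), and -0.85 in the Ikbkb set and -0.73 in the Irf1 set taken singly. The adjusted p was 0.804 by edgeR and 0.0135 by DESeq2. Over 31 other fits the log2 fold change of Ddx58 ran from -0.86 to -0.65, so no single library sets it. The related sensors had smaller fold changes. Ifih1, which encodes MDA5, had a log2 fold change of -0.35 (SE 0.21) and Dhx58, which encodes LGP2, -0.39 (SE 0.34), and neither was called.

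The other genes whose groups do not overlap differ in function and level. C1s1, a complement protease, averaged 13.0 ± 5.78 CPM in Ikbkb-deleted and 29.4 ± 10.3 CPM in Ikbkb control libraries, and 42.6 ± 12.9 CPM in Irf1-deleted and 65.5 ± 11.7 CPM in Irf1 control libraries (SD, n = 4 each). Its log2 fold change was -0.90 (SE 0.25). Bclaf1, which encodes a nuclear protein of RNA processing and apoptosis, had a log2 fold change of -0.44 (SE 0.13). On the higher side, Cmtm4, a membrane protein that stabilises PD-L1 in human cells, averaged 11.2 CPM in Ikbkb-deleted and 7.16 CPM in Ikbkb control libraries, and 9.25 CPM in Irf1-deleted and 5.38 CPM in Irf1 control libraries.

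The 12 expressed genes of smallest p on the lower side, all with the same sign in both sets, include the interferon-inducible genes Ddx58 and Mndal, a member of the interferon-inducible p200 family. Mndal had 14.5, 21.5, 13.8 and 12.0 CPM in Ikbkb-deleted libraries, against 28.6, 26.3, 56.8 and 36.8 CPM in Ikbkb controls, and 47.2, 36.0, 33.2 and 20.6 CPM in Irf1-deleted libraries, against 31.0, 46.1, 40.6 and 70.2 CPM in Irf1 controls. Its groups separate in the Ikbkb set and overlap in the Irf1 set (log2 fold change -0.86, SE 0.24). Prdm1, which encodes the repressor Blimp-1, had a log2 fold change of -0.93 (SE 0.27). Gramd1a, a carrier of cholesterol from the plasma membrane to the endoplasmic reticulum, had -0.61 (SE 0.18), and Agtpbp1, a tubulin deglutamylase, -0.94 (SE 0.24). The others were Akap8l, Alms1, Mgst1, Dpt, Nucb2, C1s1 and Bclaf1, with log2 fold changes of -1.10 (Alms1) to -0.44 (Bclaf1). None of the 12 was called by edgeR.

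On the higher side the 12 genes include several of metabolism and ribosome synthesis. Acat2, the cytosolic thiolase that makes acetoacetyl-CoA for the mevalonate pathway, had 70.7, 92.5, 58.1 and 73.6 CPM in Ikbkb-deleted libraries, against 63.7, 48.3, 43.0 and 66.0 CPM in Ikbkb controls. Acat2 had 52.6, 33.5, 33.0 and 60.1 CPM in Irf1-deleted libraries, against 31.0, 28.3, 29.3 and 27.4 CPM in Irf1 controls. Its groups separate in the Irf1 set and overlap in the Ikbkb set (log2 fold change 0.52, SE 0.15). Shmt2, the mitochondrial enzyme that takes a carbon unit from serine, had a log2 fold change of 0.55 (SE 0.18), and Gart, an enzyme of purine synthesis, 0.47. Urb1 and Nifk, nucleolar proteins of ribosome assembly, had 0.92 (SE 0.30) and 0.35 (SE 0.10). The others were Dhx32, B3galt6, Lrrc28, Pithd1, Mettl13, Fam234b and Usp10, between 0.36 (Usp10) and 0.92 (Mettl13), and none of the 12 was called by edgeR.

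**Figure D2:**
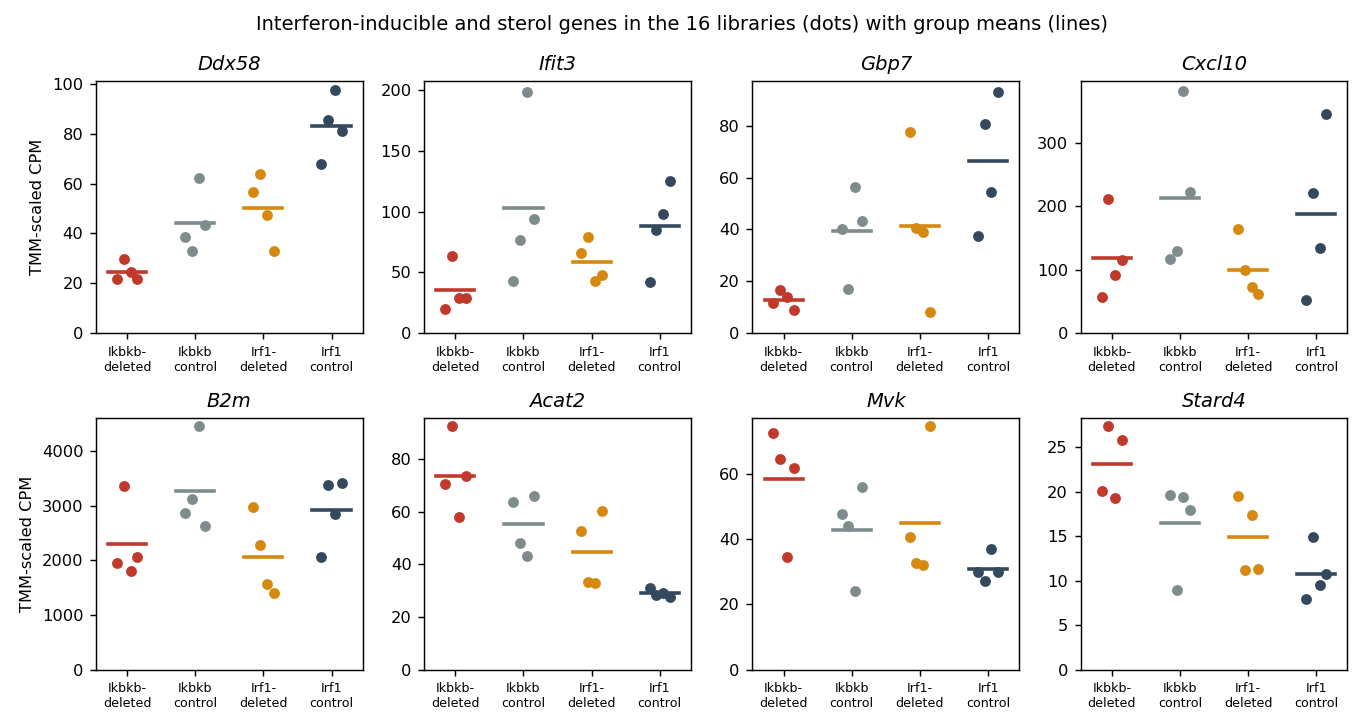
TMM-scaled CPM of 8 genes in each library (dots) and group means (lines), with each deleted group left of its own controls. All Ddx58 values of deleted libraries lie below those of their controls, while Ifit3, Gbp7, Cxcl10 and B2m overlap in at least 1 set, and Acat2, Mvk and Stard4 have higher means in deleted libraries of both sets.

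Type I interferon-stimulated genes had lower means in deleted libraries for all 40 of 40 members tested (background 51.7%), with none called by edgeR. In both sets taken singly 39 of 40 were lower (background 30.4%), and 14 had an unadjusted p under 0.05 (background 2.86%). Their median log2 fold change was -0.64, against -0.01 over all genes tested, with -0.77 in the Ikbkb set and -0.46 in the Irf1 set. Members share induction by the same factors and are not independent of each other. Ifit3, which binds viral RNA with its partner IFIT1, had 19.5, 63.2, 29.2 and 29.0 CPM in Ikbkb-deleted libraries, against 42.7, 76.3, 199 and 94.2 CPM in Ikbkb controls. Ifit3 had 66.0, 78.7, 42.9 and 47.6 CPM in Irf1-deleted libraries, against 42.4, 84.9, 98.2 and 126 CPM in Irf1 controls. The groups overlap in both sets (log2 fold change -1.06, SE 0.34). Reads of Ifit3 and its near copy Ifit3b (-0.96) may be split between them, so both values are uncertain. Isg15, a ubiquitin-like modifier, averaged 105 CPM in Ikbkb-deleted and 214.5 CPM in Ikbkb control libraries, and 93.0 CPM in Irf1-deleted and 147.5 CPM in Irf1 control libraries (log2 fold change -0.85, SE 0.35). Bst2, which tethers budding virus, had -0.63, Oas1a, a sensor of double-stranded RNA, -0.70, and Ifitm3, the highest member, -0.43 (SE 0.20).

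Interferon-gamma-inducible genes were lower for 29 of 34 members, with 28 lower in both sets (background 30.4%) and 3 higher in both (background 26.5%). At an unadjusted p under 0.05, 7 were lower (background 2.86%), and none was called by edgeR. Their median log2 fold change was -0.69, with -0.76 in the Ikbkb set and -0.45 in the Irf1 set. Gbp7, a guanylate-binding GTPase of defence against intracellular pathogens, had 11.7, 16.6, 13.8 and 8.92 CPM in Ikbkb-deleted libraries, against 40.2, 17.1, 56.2 and 43.3 CPM in Ikbkb controls. Gbp7 had 77.5, 40.6, 39.0 and 8.12 CPM in Irf1-deleted libraries, against 37.4, 80.7, 54.5 and 93.0 CPM in Irf1 controls. The groups separate in the Ikbkb set and overlap in the Irf1 set, where Irf1-deleted replicate 1 exceeds 2 controls (log2 fold change -1.15, SE 0.37). Gbp3 had -0.84 (SE 0.33) and Irgm2, an immunity-related GTPase, -0.66 (SE 0.23). The members with a higher mean in deleted libraries were Ido1, Wars, Upp1, Ciita and Irf8, of which Irf8, a cDC1 lineage factor and the highest member, had 0.09 (SE 0.50).

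RefSeq promoter windows on GRCm38.p6, from 250 bases before to 50 after the start, were searched on both strands for the ISRE, written as GAAA, any 2 bases and GAAA again (TTTC on the other strand). Windows matched by symbol for 11221 of the 16040 genes tested. The ISRE was present in 1131 of 32851 windows in the table (3.44%), in 15 of 30 matched type I genes (50%) and in 12 of 22 matched interferon-gamma genes (54.5%). The windows of the leading interferon genes are shown because they carry the element near the start, with the ISRE in capitals and 5′ to 3′ on the strand of the gene. Ddx58 lies at chr4:40239796-40239848 (minus strand), Ifit3 at chr19:34583348-34583407 (plus strand), Gbp7 at chr3:142530258-142530317 (plus strand) and Irgm2 at chr11:58214888-58214947 (plus strand).
Ddx58: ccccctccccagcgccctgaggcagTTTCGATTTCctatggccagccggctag
Ifit3: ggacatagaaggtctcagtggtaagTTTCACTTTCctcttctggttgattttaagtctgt
Gbp7: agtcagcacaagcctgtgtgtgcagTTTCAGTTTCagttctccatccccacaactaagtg
Irgm2: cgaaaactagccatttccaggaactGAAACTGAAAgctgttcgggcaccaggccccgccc
The Ifit3 window was identical to that of Ifit3b over 60 of 60 bases. A match is a run of letters and does not show that a factor binds there.

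The ISRE genes outside both interferon lists showed the same direction by a small amount. Of 427 such genes 250 (58.5%) had a lower mean in deleted libraries, against 50.4% of genes with no match. Their median log2 fold change was -0.07, with -0.08 in the Ikbkb set and -0.07 in the Irf1 set, against -0.0025 for those with no match. These windows include genes induced by interferon that neither list holds, so the group is not free of interferon genes.

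NF-kB sites, written as GGGA, any 4 bases and CC and searched on both strands, matched 20.7% of all windows, 30% of the tested genes with a window and 15 of 30 NF-kB list members (50%). That share was not particular to the NF-kB list. It was 50% in the cholesterol (8 of 16) and dissociation stress lists (9 of 18) and 48.1% in the ribosomal protein list (13 of 27). The other pathway lists ran from 23.3% (type I) to 40.9% (MHC class I). Tested genes with the kB site had a median log2 fold change of -0.02 and 53.4% were lower, against 49.9% of those without. Both motifs occurred together in 175 windows (0.533%) and in 95 tested genes, 63.2% of which were lower, against 50.9% of the rest. Of all 454 tested genes with an ISRE, with or without a kB site, 61.0% were lower. The median log2 fold change was -0.103 with both motifs and -0.0975 over all ISRE genes. Members of the interferon lists were not taken out of either group. Examples among MHC class I and chemokine genes are shown because they carry both motifs close together, each in capitals. B2m lies at chr2:122147536-122147581 (plus strand, 2 bases between motifs), H2-T22 at chr17:36042912-36042967 (minus strand, 12 bases) and Cxcl10 at chr5:92349027-92349114 (minus strand, 44 bases).
B2m: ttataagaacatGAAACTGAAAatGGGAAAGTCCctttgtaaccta
H2-T22: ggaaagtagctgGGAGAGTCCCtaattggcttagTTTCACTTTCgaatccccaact
Cxcl10: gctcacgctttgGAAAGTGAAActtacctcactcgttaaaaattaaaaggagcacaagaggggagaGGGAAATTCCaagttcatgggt
The first capitals in B2m and Cxcl10 and the second in H2-T22 mark the ISRE, and the other capitals mark the kB site, which in H2-T22 is shown as its match on the opposite strand and overlaps a match on the strand printed.

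B2m, the invariant chain of MHC class I, had 1952, 3359, 1807 and 2067 CPM in Ikbkb-deleted libraries, against 2864, 3118, 4456 and 2636 CPM in Ikbkb controls. B2m had 2983, 2274, 1576 and 1405 CPM in Irf1-deleted libraries, against 2054, 3384, 2851 and 3418 CPM in Irf1 controls. The groups overlap through 1 deleted library in the Ikbkb set and through replicates of both groups in the Irf1 set, and the log2 fold change was -0.51 (SE 0.18) and nearly equal in both sets (-0.51 and -0.51). Of 25 MHC class I and antigen processing genes 20 were lower and 18 were lower in both sets, with a median log2 fold change of -0.23 and none called by edgeR. H2-T22 had -0.56 (SE 0.25) and H2-Q4 -1.03 (SE 0.39), and reads may be shared among these near-identical class I genes. MHC class II presentation genes showed no common direction, with 8 of 19 lower and a median of 0.03.

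Chemokines and cytokines were lower for 25 of 31 members tested of 33, and for 21 in both sets, with a median log2 fold change of -0.40. Cxcl10, a ligand of CXCR3 that draws in T cells, had 57.1, 212, 91.4 and 115 CPM in Ikbkb-deleted libraries, against 116, 130, 381 and 222 CPM in Ikbkb controls. Cxcl10 had 164, 99.0, 72.1 and 61.8 CPM in Irf1-deleted libraries, against 52.0, 220, 134 and 345 CPM in Irf1 controls. The groups overlap in both sets (log2 fold change -0.88, SE 0.37), and Cxcl9, its companion ligand, had -0.82 (SE 0.67). Ifng, the interferon-gamma gene made by T and NK cells, was listed at 0 in Irf1-deleted replicates 2, 3 and 4 and at 0.778 CPM in replicate 1, against 0.172, 2.68, 0.522 and 3.83 CPM in Irf1 controls. In the Ikbkb set Ifng had 0.683, 3.73, 0.743 and 3.14 CPM in deleted libraries, against 1.73, 4.51, 24.0 and 3.74 CPM in controls.

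NF-kB pathway and target genes were lower for 30 of 36 members and for 21 in both sets, with a median log2 fold change of -0.27, 1 member lower at an unadjusted p under 0.05 (2.78%, near the 2.86% of all genes tested) and none called by edgeR. In that list Cflar, a caspase-8 inhibitor, had -0.55 (SE 0.26), and Tnfaip3, which encodes the NF-kB inhibitor A20, had -0.50 (SE 0.24). Further genes of the pathway had these values, with Nfkbia, the inhibitor that NF-kB induces, at -0.06 (SE 0.16) and Il12b at -0.40 (SE 0.79). The NF-kB subunit genes Nfkb1, Relb and Rel had -0.15 (SE 0.20), -0.30 (SE 0.36) and -0.68 (SE 0.54). The subunit gene Rela went the other way, with 0.09 (SE 0.15), and 0.01 in the Ikbkb set and 0.17 in the Irf1 set. Dendritic cell maturation and migration genes were lower for 28 of 30 members tested of 32, with a median of -0.35. In that list Cd80, a costimulatory ligand of CD28, had -0.84 (SE 0.37) and Ccr7, the receptor for migration to lymph nodes, -0.24 (SE 0.51). Dissociation stress genes, immediate-early and heat-shock genes that tissue digestion can induce, were lower for 22 of 23 members with a median of -0.32.

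**Figure D3:**
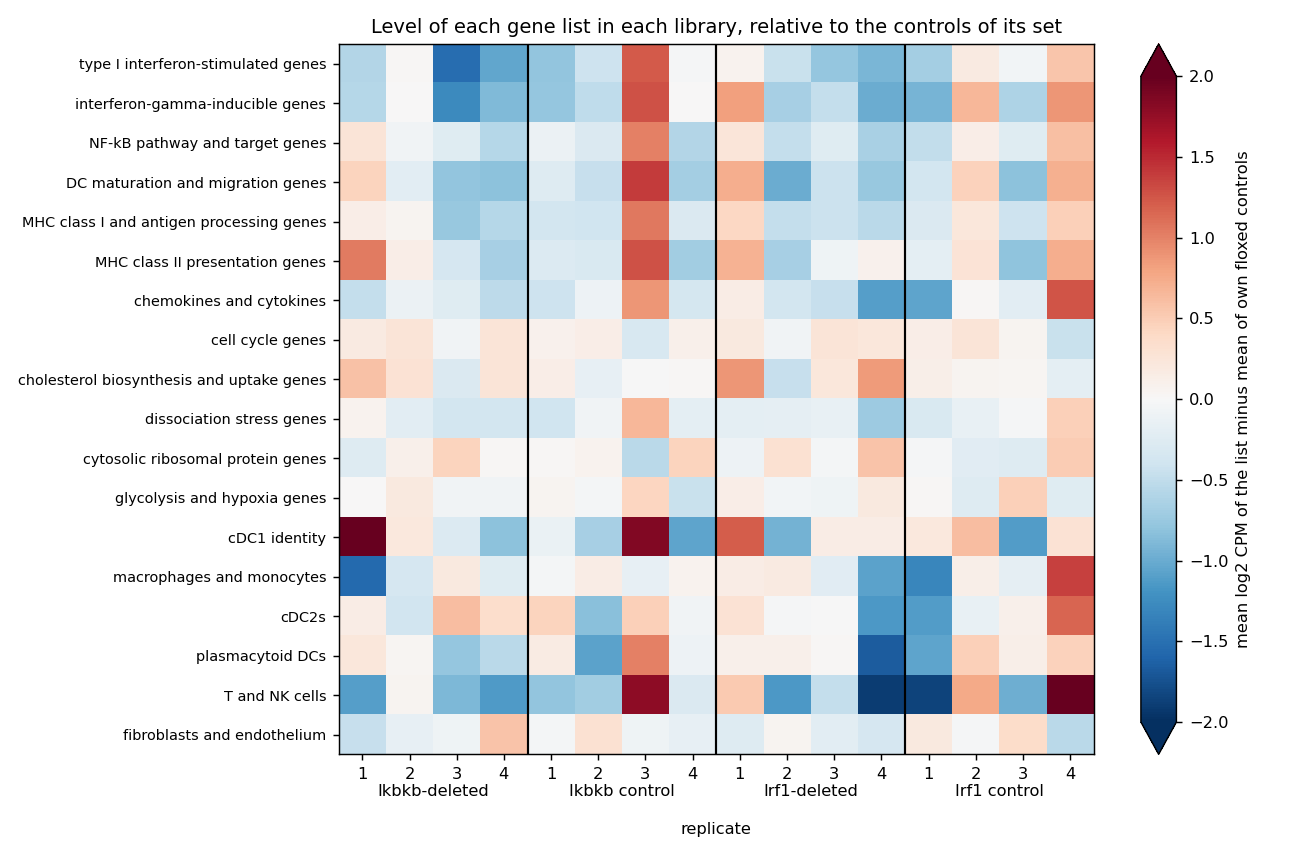
Mean log2 CPM of each gene list in each library (columns, by group and replicate), minus the mean of the floxed controls of the same set; red is higher and blue lower, with colours clipped at 2 log2 units and 5 marker lists of low counts not drawn. The type I interferon and T and NK cell lists are highest in their sets in Ikbkb control replicate 3 and Irf1 control replicate 4, where the cholesterol list is at -0.0044 and -0.20.

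Markers of T and NK cells moved with the interferon lists. All 21 of 21 T and NK markers were lower in deleted libraries and 20 were lower in both sets, with a median log2 fold change of -1.08 (-0.99 in the Ikbkb set and -1.09 in the Irf1 set), 5 lower at an unadjusted p under 0.05 (background 2.86%) and none called by edgeR. Their sum was 332, 670.5, 335 and 282 CPM in Ikbkb-deleted libraries, against 354, 373, 2242 and 581 CPM in Ikbkb controls. It was 271, 114, 132 and 101 CPM in Irf1-deleted libraries, against 72.0, 305, 116 and 855 CPM in Irf1 controls. The groups overlap in both sets, and 1 control in each lies far above the rest. Gzmb, a protease of cytotoxic granules, had a log2 fold change of -1.68 (SE 0.60) and Cd2, an adhesion receptor of T cells, -1.35 (SE 0.53). In bulk RNA fewer cells of a type and less RNA per cell cannot be told apart. Macrophage and monocyte genes were lower for 16 of 19 members, with a median of -0.52 and a sum of 4100 to 14230 CPM in deleted and 7037 to 18260 CPM in control libraries. Ly6c2, a surface protein of monocytes and of activated CD8 T cells, had -1.65 (SE 0.60). Plasmacytoid DC genes were lower for 8 of 10 (median -0.55) and cDC2 genes for 7 of 8 (median -0.47), while 15 of 21 cDC1 identity genes were higher (median 0.19).

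The interferon lists were refitted with the log2 sum of the T and NK markers as a covariate, and the direct values are these. The median of the type I list was -0.19 with the covariate and 36 of 40 members were lower, while that of the interferon-gamma list was -0.0011 with 17 of 34 lower. NF-kB genes had a median of 0.02, maturation genes 0.07, MHC class I genes 0.06 and chemokines and cytokines -0.04 in that fit. Ddx58 kept a log2 fold change of -0.68. With the sum of the cDC1 genes as the covariate in its place, the medians were -0.67 for the type I list, where 27 of 40 were lower at an unadjusted p under 0.05 (4.29% of all genes in that fit), and -0.70 for the interferon-gamma list. These are fits to the same 16 libraries, and no gene was called by edgeR in either.

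Single libraries, 1 control in each set, also carried much of the size of several lists. Without Ikbkb control replicate 3 the type I median was -0.34 with 38 of 40 lower, the interferon-gamma median -0.40 with 24 of 34 lower, and the T and NK median -0.56 with 21 of 21 lower. The NF-kB median was -0.0022 with 18 of 36 lower, the maturation median 0.03, the MHC class I median -0.04 and the stress median -0.12. Leaving out each library in turn, the medians ran from -0.78 to -0.34 for the type I list, from -0.91 to -0.40 for the interferon-gamma list, and from -1.28 to -0.56 for T and NK markers. The cDC1 median ran from -0.28 without Ikbkb-deleted replicate 1 to 0.64 without Ikbkb control replicate 3. Without Irf1 control replicate 4 the macrophage median was -0.14 and the chemokine and cytokine median -0.13. Relative to the mean of the Irf1 controls, the T and NK list stood at 2.07 log2 units in that replicate. The other Irf1 controls were at -1.85, 0.75 and -0.98, a range like that of Irf1-deleted libraries (0.52, -1.155, -0.48 and -1.90). The interferon-gamma list was at 0.885 in that replicate and at -0.93, 0.66 and -0.62 in the other Irf1 controls. In Irf1-deleted libraries it was at 0.82, -0.67, -0.47 and -0.99.

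**Figure D4:**
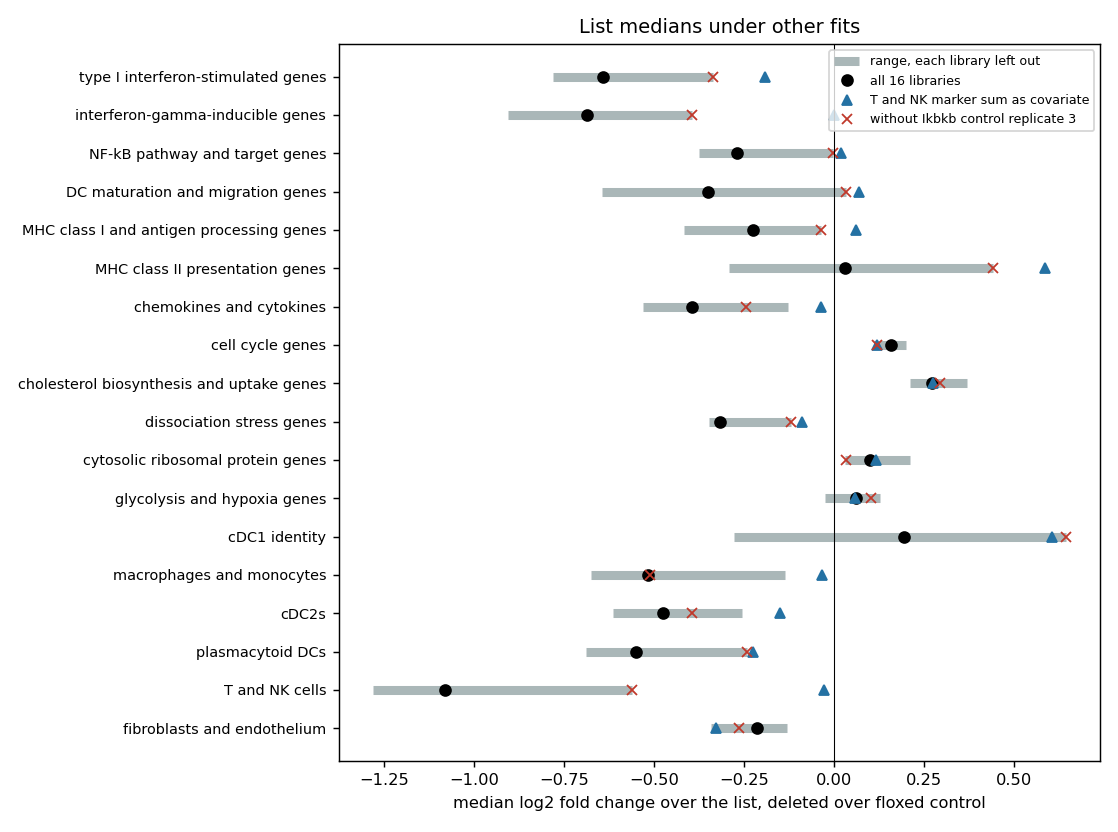
Median log2 fold change (deleted over floxed control) of each list with all 16 libraries (black), the range when each library is left out (grey bar), without Ikbkb control replicate 3 (red cross) and with the T and NK marker sum as covariate (blue triangle). The type I list stays below 0 in every fit shown, the interferon-gamma list reaches -0.0011 with the covariate, and the cholesterol list lies between 0.21 and 0.37.

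Cholesterol biosynthesis and uptake genes had the opposite direction. All 24 of 24 members had a higher mean in deleted libraries (background 48.3%) and 19 were higher in both sets (background 26.5%), with none lower in both. The median log2 fold change was 0.27 (0.23 in the Ikbkb set and 0.43 in the Irf1 set), 5 members had an unadjusted p under 0.05 (background 1.73%) and none was called by edgeR. These genes are induced together by SREBP2, a factor released when sterols in the endoplasmic reticulum are low, and are not independent of each other. Mvk, which phosphorylates mevalonate, had 72.7, 64.7, 34.5 and 61.9 CPM in Ikbkb-deleted libraries, against 47.7, 44.2, 24.1 and 55.9 CPM in Ikbkb controls. Mvk had 40.6, 32.9, 32.0 and 74.7 CPM in Irf1-deleted libraries, against 29.9, 27.1, 37.0 and 30.0 CPM in Irf1 controls. The groups overlap in both sets (log2 fold change 0.49, SE 0.21). Fdps, which makes farnesyl pyrophosphate, had 18.6, 16.5, 7.70 and 15.1 CPM in Ikbkb-deleted libraries, against 7.66, 11.9, 9.99 and 9.84 CPM in Ikbkb controls, and 12.1, 6.22, 7.11 and 14.0 CPM in Irf1-deleted libraries, against 4.95, 7.05, 7.80 and 4.21 CPM in Irf1 controls (0.64, SE 0.24). Stard4, a sterol carrier, had 0.48 (SE 0.21), Sqle, squalene epoxidase, 0.56 (SE 0.25) and Cyp51, lanosterol demethylase, 0.44 (SE 0.21). The regulator Srebf2 had 0.24 (SE 0.24).

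The cholesterol median kept its sign in every fit tried. It was 0.28 with the T and NK covariate, with 24 of 24 members higher, 0.26 with the cDC1 covariate and 0.29 without Ikbkb control replicate 3. Over all 31 other fits it ran from 0.19 to 0.43. In sums of the list, deleted libraries held 1630 to 2760 CPM and Ikbkb controls 1472 to 2031 CPM in the Ikbkb set, and deleted libraries 848 to 1895 CPM and controls 911 to 1230 CPM in the Irf1 set, so the libraries overlap in both. A sterol regulatory element written as TCAC, any base and CCAC, searched on both strands, was present in the window of 1 of 16 matched members, Hmgcs1, and in 1.24% of all windows.

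Cell cycle genes leaned the same way, with 28 of 32 higher, 23 higher in both sets and a median log2 fold change of 0.16 (0.17 in each set). Only 1 member was higher at an unadjusted p under 0.05 (3.1%, against 1.73% of all genes tested), and none was called by edgeR. Cdc45, a subunit of the replicative helicase, had 95.7, 94.2, 89.0 and 101 CPM in Ikbkb-deleted libraries, against 65.9, 78.2, 73.2 and 56.8 CPM in Ikbkb controls. Cdc45 had 48.0, 76.5, 78.3 and 89.5 CPM in Irf1-deleted libraries, against 62.2, 75.7, 65.2 and 30.4 CPM in Irf1 controls. Its groups separate in the Ikbkb set and overlap in the Irf1 set (0.40, SE 0.17). The ribonucleotide reductase gene Rrm2 had 0.29 (SE 0.15), and with the T and NK covariate the list median was 0.12 with 24 of 32 higher. Cytosolic ribosomal protein genes were higher for 31 of 36 members by a median of 0.10, and glycolysis and hypoxia genes for 14 of 25 by 0.06. No member of the ribosomal or glycolysis list had an unadjusted p under 0.05.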

How the data were processed

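RNA-seq read counts per gene were used as deposited by the authors, in 1 table of 16 libraries and 32697 genes. The submitters' processing notes list HTSeq 0.6.1p1, STAR 2.5.3a, cutadapt 1.10 and bcl2fastq 2.17.1.14 as tools and mm10 as build, with no roles given; the annotation release and strand setting are not given in the sources used here. Per the labels' protocols, cDNA came from 1000 pg of RNA by SMART-Seq v4 with 12 PCR cycles, then Nextera XT with 12 more. Without molecular identifiers, counting error understates the spread.

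Genes were kept by filterByExpr (minimum count 10, total 15), leaving 16040, and scaled by TMM. The common effect was tested with edgeR 4.0.16 (R 4.3.3), a quasi-likelihood F test of deleted against floxed control with the set as an additive term, adjusted by Benjamini-Hochberg. Within-set effects and their difference came from a fit with a mean per group. Log2 CPM used a prior count of 2. DESeq2 1.42.0 and limma 3.58.1 (voom) were alternatives. Only the edgeR fit of the common effect was tried on simulated data. Replicate numbers follow record order and pair no libraries. Since separate animals are not stated, p-values measure the spread between libraries.

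The comparison, its members and the 23 lists (454 genes tested) were chosen with earlier results of these data known. Named genes are both targeted genes, up to 12 genes a side of smallest p whose mean log2 CPM reaches 3 and whose sign is the same in both sets, and for each list the 3 members of smallest p and the one of highest mean CPM. Further members are named as illustrations, chosen after their values were seen. Gene coordinates are those of a GENCODE annotation of mm10, and promoter windows are those of RefSeq on GRCm38.p6. Some genes are not reported here.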

Additional observations from a re-analysis of the deposited data

Results flagged for a closer look

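Within groups of 4 libraries, 40 of 528 groups (7.58%) held a highest or lowest library that stood far from the others by Dixon's criterion on log2(CPM + 1), where chance alone gives about 1 in 20. The groups covered the named genes and the list sums in CPM. Ikbkb control replicate 3 gave 10 of them and Irf1-deleted replicate 4 gave 8. No gene was called by edgeR for a difference between the deletions, with 455 genes under an unadjusted p of 0.05 and 12 called by DESeq2.

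Ikbkb control replicate 3 was the highest of its group for Ikbkb (121 CPM), Ccl5 (261 CPM), H2-Q4 (75 CPM), H2-D1 (8520 CPM), Cd74 (21100 CPM), Slc16a3 (133 CPM), Mmp8 (2.52 CPM) and Sox10 (1.47 CPM). It was also highest for the summed MHC class I genes (33100 CPM) and MHC class II genes (68200 CPM). These genes span antigen presentation, a T cell chemokine, a lactate carrier, a collagenase and a melanocyte factor, and the same library had the highest T and NK marker sum of the series.

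Irf1-deleted replicate 4 was the lowest of its group for C1s1 (23.5 CPM), Prdm1 (20.8 CPM), Bclaf1 (58.9 CPM) and Gramd1a (39.7 CPM). It was the highest for Cdk1 (360 CPM), Ldha (3150 CPM), Sox10 (0.686 CPM) and the summed glycolysis and hypoxia genes (11500 CPM).

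The remaining values were spread over other libraries. Ikbkb-deleted replicate 3 was lowest for Dhx32 (41.9 CPM), Jun (705 CPM) and Mitf (1.43 CPM), and Ikbkb-deleted replicate 4 was lowest for Cflar (20.3 CPM) and highest for Col3a1 (2960 CPM). Irf1-deleted replicate 1 was highest for Ifng (0.778 CPM) and lowest for S100a8 (0.778 CPM), and Irf1-deleted replicate 2 was highest for Mgst1 (33.7 CPM). Ikbkb control replicate 1 was lowest for Urb1 (3.67 CPM) and highest for Epcam (6.95 CPM) and Pmel (3.45 CPM), replicate 2 was lowest for Stard4 (8.98 CPM) and replicate 4 was highest for Dsp (0.623 CPM). Irf1 control replicate 1 was lowest for Ifitm3 (617 CPM) and Cd80 (6.75 CPM), and replicate 2 was highest for Krt14 (0.397 CPM). Irf1 control replicate 3 was highest for Prdm1 (65.8 CPM) and Dsp (0.0402 CPM). Irf1 control replicate 4 was lowest for Shmt2 (81.5 CPM), Hsp90ab1 (1460 CPM) and the summed cholesterol genes (911 CPM), and highest for Tnnt3 (3.31 CPM).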

How the results depend on the processing

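The count of genes called for the common effect was 0 in every other edgeR or limma fit tried, including each library left out, and 4 by DESeq2. DESeq2 called 38 genes for Ikbkb within its set, 6 for Irf1 within its set and 12 for the difference between the deletions, where edgeR called 0. Leaving out each library in turn, edgeR called 0 to 1 genes for Ikbkb (1 without Ikbkb-deleted replicate 2) and 0 to 1 for the difference (1 without Irf1 control replicate 3). The median log2 fold change of keratinocyte markers was 0.0483 with a filter of 5 CPM in 4 libraries and 0.225 in the Ikbkb set alone, against 2.37 as reported, and that of neutrophil markers was -0.258 with that filter, against 0.787. Of 108 named genes 21 changed sign in at least 1 fit, in 59 of 3323 values, and none of these was called by edgeR. The log2 fold change ran, over the libraries left out, from -0.89 to 0.28 for Acta1, -0.60 to 0.34 for Ccr7, -0.35 to 0.40 for Cd74, -0.64 to 0.31 for Cd83, -0.32 to 0.64 for Irf8, -0.00056 to 0.17 for Ldha, -1.59 to 0.97 for Pmel, -0.0094 to 0.20 for Rps3, -0.66 to 0.027 for Slc16a3, -1.75 to 0.15 for Sox10, -0.19 to 0.021 for Spp1. With limma voom and quality weights it was 0.16 for Acta1, 0.0797 for Ccr7, 0.34 for Cd74, 0.086 for Cd83, 0.11 for Csf3r, 0.11 for Ctss, 0.24 for Il1b, 1.01 for Irf4, 0.33 for Pmel, 0.014 for Slc16a3. In the Irf1 set alone it was 0.11 for Acta1, 0.28 for Atp2a1, 0.0395 for Hsp90ab1, 0.46 for Ighm, 1.05 for Pmel, 0.048 for Rfxank. With the T and NK marker sum as a covariate it was 0.0077 for Acta1, 0.15 for Atp2a1, 0.33 for Ccr7, 0.59 for Cd74, 0.31 for Cd83, 0.16 for Ctss, 0.17 for Ighm, 0.29 for Igkc, 0.55 for Il1b, 0.20 for Nkg7. Without both Ikbkb control replicate 3 and Irf1-deleted replicate 1 (added after seeing the data) it was 0.38 for Acta1, 0.23 for Cd74, 0.12 for Cd83, 0.051 for Slc16a3, 0.85 for Sox10. Without both Ikbkb control replicate 3 and Ikbkb-deleted replicate 1 (added after seeing the data) it was 0.064 for Acta1, 0.052 for Ccr7, 0.083 for Cd74, 0.003 for Slc16a3, 0.22 for Sox10. With the cDC1 sum as a covariate it was -0.098 for Irf8. In the Ikbkb set alone it was -0.039 for Ldha. The cause was not tested. No paired analysis was possible because replicate numbers follow the order of the record and pair no libraries. Depth limits genes under about 1 CPM, whose fold changes rest on few counts.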

Other observations

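Keratinocyte and muscle genes were uneven between libraries. Krt14, a keratin of basal epidermis, had 46.6, 1.71, 572 and 0.121 CPM in Irf1-deleted libraries, against 0, 0.397, 0.0402 and 0.0472 CPM in Irf1 controls. Summed keratinocyte markers were 114 and 1102 CPM in Irf1-deleted replicates 1 and 3, against at most 8.08 CPM in Irf1 controls, and the median fitted log2 fold change of the list was 2.37 over both sets, with 0.18 in the Ikbkb set and 7.71 in the Irf1 set. Tnnt3, a troponin of fast skeletal muscle, had 5.25, 2.42, 0.159 and 3.19 CPM in Ikbkb-deleted libraries, against 13.4, 1.77, 72.3 and 4.17 CPM in Ikbkb controls. Ikbkb control replicate 3 held the highest Tnnt3 level as well as the highest summed T and NK markers.

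B cell genes had opposite directions in the sets, a difference that was not tested over the list. Of 8 B cell genes tested 4 were lower, and the median log2 fold change was -0.05, with -1.20 in the Ikbkb set and 1.09 in the Irf1 set. Their sum was 98.8, 77.5, 163 and 118 CPM in Ikbkb-deleted libraries, against 152, 137, 980 and 341 CPM in Ikbkb controls, again highest in Ikbkb control replicate 3. In the Irf1 set it was 145, 16.7, 36.8 and 69.5 CPM in deleted libraries, against 27.8, 60.2, 19.8 and 104 CPM in controls. Melanoma markers were scarce, and Mitf, the master factor of melanocytes, had 1.43 to 3.98 CPM in Ikbkb-deleted and 3.57 to 10.6 CPM in Ikbkb control libraries. Mitf had 4.85 to 10.6 CPM in Irf1-deleted and 6.55 to 16.4 CPM in Irf1 control libraries, with overlap in both sets (log2 fold change -1.15 and -0.54, neither called by edgeR). Fibroblast and endothelium genes were lower for 15 of 20 members, with a median of -0.21.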
